A study of Mus musculus with 4 samples.

Results

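The genes described here are 34 genes of the endoplasmic reticulum (ER) stress and ATF4 response, listed by symbol and looked up in the expression table of lymphoma cells from λ-MYC mice. The list held chaperones of the secretory pathway, enzymes of protein folding and degradation, channel subunits, the stress sensors, and ATF4 with genes that respond to it. All 34 were among the 34866 genes of the table, and 32 were among the 11339 genes with at least 1 TPM (transcripts per 1000000) in at least 2 libraries, which were the genes tested. Trib3 and Chac1 were below this limit.

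RNA was sequenced from B220+ IgM+ splenocytes of 2 λ-MYC Tom+/ki mice, each with an IgM+ Tom+ lymphoma (tumors #1 and #2). From each mouse the cells were sorted by flow cytometry into Tom+ and Tom- cells, which gave 4 libraries. All 4 libraries shared the same alleles, λ-MYC+/TG, R26tdTom+/ki and a knock-in of Cre recombinase. The λ-MYC transgene places MYC under regulatory sequences of the immunoglobulin λ locus, and it is active in B cells. Cre switches on the Tomato (Tom) protein for good, so Tom marked cells in which Cre had been active at any time, whether or not it still was. The Tom- cells were thus the unlabelled cells of the same spleen and not cells of a healthy mouse, and the ages of the mice were not given. Each group held 1 library from each mouse, and each tumor was 1 mouse, so Tom+ and Tom- cells could be compared within mice while the tumors could not be compared by a test.

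The ER folds proteins that are secreted or placed in membranes, including immunoglobulin. When unfolded protein accumulates there, the membrane proteins IRE1 (Ern1), PERK (Eif2ak3) and ATF6 start the unfolded protein response. IRE1 splices the transcript of Xbp1, and ATF6 is cleaved to a transcription factor. Both raise chaperones and degradation factors. PERK phosphorylates the initiation factor eIF2, as do other kinases that sense lack of amino acids or heme, and this lowers translation in general while it favors translation of ATF4. ATF4 then induces genes for amino acid synthesis, the factor CHOP (Ddit3) and the phosphatase subunit GADD34 (Ppp1r15a), which reverses the phosphorylation of eIF2. In the B lineage the IRE1 and XBP1 branch is best known from plasma cells, which secrete antibody. Messenger RNA levels do not record splicing of Xbp1, cleavage of ATF6 or phosphorylation of eIF2, so the activity of the sensors was not measured.

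The letters through which these branches are known to act can be read in the promoters of the listed genes. Promoters of 29 of the 34 genes were matched in the RefSeq table of GRCm38.p6 (30 promoters), and the 250 bases upstream of each start were searched on both strands. The ER stress response element, searched as CCAAT and CCACG separated by 9 bases, was present in 8 of the 30 promoters (26.7%), against 0.113% of all 32851 promoters. The 8 genes were Calr, Canx, Creld2, Dnajc3, Hsp90b1, Hspa5, Pdia6 and Syvn1. Its CCACG part, which every such element contains, was found in 21 of the 30 (70.0%) and in 28.3% of all promoters. The 8 letters TGACGTGG, bound by ATF6 and XBP1, were in 0 of the 30 and in 0.563% of all. The ATF4 element, searched as TGATGNAA, was in 3 promoters (10%), those of Asns, Chac1 and Herpud1, against 3.45% of all. The genes were listed for known roles in this response, so these shares describe the list and are not a test of it.
Below are 4 promoter windows with the ER stress response element, from the chaperone genes Hspa5 and Calr, the disulfide isomerase gene Pdia6 and the ubiquitin ligase gene Syvn1. Each is written along the strand of its gene with the element in capitals, which in Calr runs on the opposite strand. They lie at chr2:34772000-34772068 (plus strand, Hspa5), chr8:84847050-84847118 (minus strand, Calr), chr12:17266466-17266534 (plus strand, Pdia6) and chr19:6046507-6046575 (plus strand, Syvn1).
Hspa5: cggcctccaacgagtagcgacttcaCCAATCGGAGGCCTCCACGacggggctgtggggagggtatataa
Calr: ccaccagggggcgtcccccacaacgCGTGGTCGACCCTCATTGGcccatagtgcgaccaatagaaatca
Pdia6: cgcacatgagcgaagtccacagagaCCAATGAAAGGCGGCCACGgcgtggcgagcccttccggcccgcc
Syvn1: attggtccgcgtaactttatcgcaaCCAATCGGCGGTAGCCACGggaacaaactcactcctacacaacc
The ATF4 element is shown for all 3 genes that held it. The windows lie at chr6:7693210-7693257 (minus strand, Asns), chr8:94386292-94386349 (plus strand, Herpud1) and chr2:119351024-119351081 (plus strand, Chac1), and the element, in capitals, runs on the opposite strand in Herpud1 and Chac1.
Asns: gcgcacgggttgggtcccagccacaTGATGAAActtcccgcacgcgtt
Herpud1: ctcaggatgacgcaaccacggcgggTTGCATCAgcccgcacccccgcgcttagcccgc
Chac1: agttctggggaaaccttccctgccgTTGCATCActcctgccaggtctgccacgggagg
The element ended 16 bases upstream of the RefSeq start in Asns, 105 in Herpud1 and 186 in Chac1. In the GENCODE annotation used for gene coordinates, Asns begins at 7693254 on the minus strand, so there its element lies inside the gene. The same holds for the ER stress response element of Hspa5, which begins there at 34771970. Of the 3 genes with the ATF4 element, Chac1 was too low to be tested.

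TPM is a level per transcript length that sums to 1000000 in every library, so levels of different genes can be set side by side, but it keeps no read numbers, so depth is unknown and values have no counting interval. In bulk RNA, fewer cells of a type and less RNA per cell cannot be told apart. The sorted cells carried the markers of B cells, each of the 10 reaching 1 TPM. Ighm lay between 1255 and 3652 TPM and Cd79a between 120 and 346 TPM, and the sum over 10 B cell markers was 3141 (Tom-) and 2792 TPM (Tom+) in tumor #1 and 5990 (Tom-) and 6699 TPM (Tom+) in tumor #2. Markers of T cells summed to between 19.3 and 26.9 TPM, with Lck between 4.25 and 11.5 TPM, Il7r between 4.39 and 14.1 TPM and Cd3e at 0.0688 TPM or less. Cd3d was at 7.77 (Tom-) and 2.09 TPM (Tom+) in tumor #2 and at 0.329 TPM or less in tumor #1, while Cd8b1 at 2.02 TPM and Cd3g at 1.35 TPM were highest in Tom+ cells of tumor #2. The sums were at most 8.59, 6.35 and 0.592 TPM for markers of macrophages, neutrophils and NK cells. Of these lists, 6 of 12 T cell, 3 of 12 macrophage, 2 of 8 neutrophil and 0 of 6 NK cell markers reached 1 TPM in at least 1 library, and Trbc1, C1qa, Ly6g and Ncr1 were listed at 0 in all. Erythroid markers summed to 21.5 and 17.6 TPM in tumor #1 and stayed below 1 TPM in tumor #2, and the stromal and endothelial sum, almost entirely Pecam1, was 15.1 and 15.2 TPM against 50.6 and 44.4 TPM. The Tom+ library of tumor #2 stood apart in some plasma cell genes, as given below. Immunoglobulin genes took from 5.35% to 9.76% of TPM, the highest share being in the Tom+ cells of tumor #2. Mitochondrial genes took from 6.61% to 15.6% of TPM, both libraries of tumor #2 being above those of tumor #1, and genes annotated as pseudogenes took from 23.4% to 31.3%. How reads were divided between genes and similar pseudogenes is not known, and Calr has an annotated pseudogene.

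The listed genes together made up 0.296% (Tom-) and 0.288% (Tom+) of TPM in tumor #1, and 0.273% (Tom-) and 0.284% (Tom+) in tumor #2. The 8 chaperones held most of this, between 1653 and 1986 TPM, and the 3 sensors the least, between 16.2 and 34.5 TPM. Hsp90b1 was the highest gene of the list at a mean of 852 TPM over the 4 libraries, followed by Canx at 409, Calr at 245 and Hspa5 at 192. Ern1, with a mean of 1.20 TPM, was the lowest of the listed genes tested. Trib3, a pseudokinase, was at 0.212 (Tom-) and 0.305 TPM (Tom+) in tumor #1 and at 0.0890 (Tom-) and 0.248 TPM (Tom+) in tumor #2. Chac1, which degrades glutathione, was at 0.181 (Tom-) and 0.0978 TPM (Tom+) in tumor #1 and at 0 (Tom-) and 0.398 TPM (Tom+) in tumor #2. Both are known as late targets of ATF4 and CHOP, and both stayed far below the levels of Atf4 itself. Of the 31 genes with at least 1 TPM in every library, 25 differed by less than 2-fold between their highest and lowest library, and 17 by less than 1.5-fold. The same shares over all genes were not counted, so these counts do not show that the list was steadier than other genes.

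**Figure D1:**
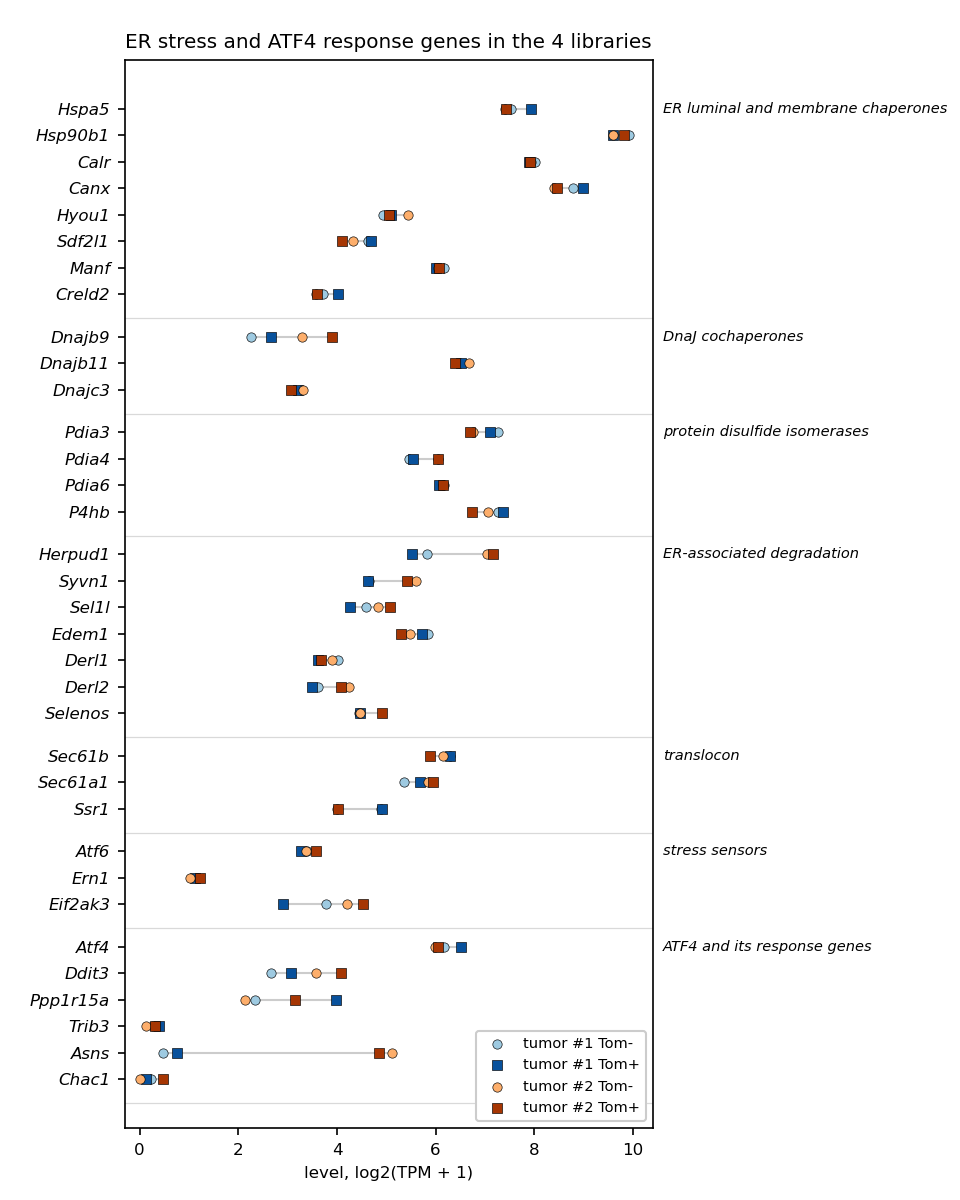
Levels of the 34 genes in the 4 libraries, grouped by role, on the scale log2(TPM + 1), with 1 point per library (circles for Tom- and squares for Tom+ cells, blue for tumor #1 and orange to brown for tumor #2) and a line from the lowest to the highest. The points of most genes overlap, while those of Asns lie far apart by tumor, below 1 in tumor #1 and near 5 in tumor #2.

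The first comparison asked whether Tom+ cells, in which Cre had been active, differed from Tom- cells of the same mouse. Ppp1r15a, which encodes GADD34, was the one listed gene with an unadjusted p-value below 0.05, at 3.67 times the Tom- level in Tom+ cells of tumor #1 and 2.33 times in tumor #2. Dnajb9 and Ddit3, by the longer of its 2 identifiers, came next, each between 1.39 and 1.60 times the Tom- level in both tumors. The chaperones, disulfide isomerases and translocon genes lay between 0.761 and 1.31 times their Tom- level in each tumor, and 4 of the 7 genes of ER-associated degradation were below it in both, as were 29.5% of all genes tested. After adjustment, 0 of the 32 tested genes had a p-value below 0.05.

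Tom+ cells were compared with Tom- cells by limma's moderated test on log2(TPM + 1) with the tumor as a block, and the p-values were adjusted over all 11339 genes by the Benjamini-Hochberg method. The share of all genes below an adjusted p-value of 0.05 was 0% and limma's lowest adjusted p-value was 0.936, which was also the smallest among the listed genes. Before adjustment, 1 of the 32 was higher in Tom+ cells at a p-value below 0.05 (3.12%), against 2.04% of all genes, and 0 were lower, against 2.64% of all genes. In both tumors 10 of the 32 were higher in Tom+ cells (31.2%), against 21.6% of all genes tested. They were Hspa5, Canx, Creld2, Dnajb9, Selenos, Sec61a1, Ssr1, Atf4, Ddit3 and Ppp1r15a. Lower in both tumors were 7 (21.9%), namely Calr, Dnajc3, Pdia3, Syvn1, Edem1, Derl1 and Derl2, against 29.5% of all genes, and the other 15 went in opposite directions. Under other scalings of the libraries between 9 and 11 were higher and between 5 and 8 lower in both. The median log2 fold change was -0.053 over the listed genes and -0.033 over all genes tested. Within tumors it was 0.0064 in tumor #1 and 0.023 in tumor #2 for the listed genes, and -0.0029 and -0.057 for all genes. The median size of the change, whatever its direction, was 0.16 and 0.22 for the listed genes and 0.20 and 0.26 for all genes. Among genes with a mean of at least 10 TPM it was 0.16 and 0.17 for 26 listed genes and 0.18 and 0.23 for all 6223. A log2 change on this scale understates that of a gene with a low TPM. Each standard error (SE) is the moderated one of limma, which combines the 2 tumors with the spread of all genes tested. It is therefore not the spread between the mice alone. With 2 pairs of libraries the smallest p-value of an exact paired permutation test is 0.5, and no such test was used.

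**Figure D2:**
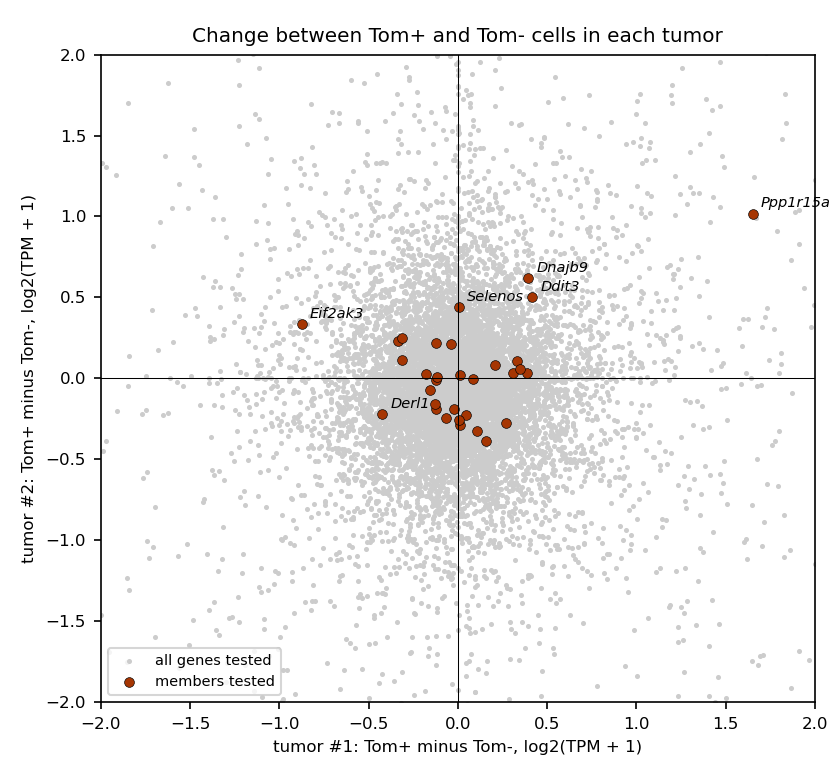
Tom+ minus Tom- cells on the scale log2(TPM + 1), in tumor #1 (horizontal) and tumor #2 (vertical), for the 32 tested genes of the list (brown) and all genes tested (grey, of which 413 lie beyond the limits of 2 on either axis and are not drawn). Ppp1r15a lies apart at 1.65 and 1.02, Dnajb9 and Ddit3 are also in the upper right, Eif2ak3 is at -0.87 and 0.33, and the rest cluster around 0.

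Where 4 TPM values follow a gene in 2 pairs, each pair gives Tom- and then Tom+ cells, with tumor #1 in the first pair and tumor #2 in the second.
Among the ATF4 response genes, Ppp1r15a (ENSMUSG00000040435, chromosome 7, 45522916 to 45526268, minus strand of GRCm38) was at 4.04 TPM in Tom- and 14.9 TPM in Tom+ cells of tumor #1. In tumor #2 it was at 3.39 and 7.88 TPM. Both Tom+ libraries were above both Tom- libraries, and the log2 fold change was 1.33 (SE 0.26). The p-value from limma was 0.0125 before and 0.936 after adjustment. Without tumor #2 the change was 1.65 and without tumor #1 it was 1.02.
Ddit3 encodes CHOP, a transcription factor of prolonged stress, and has 2 identifiers in the table. The longer identifier (ENSMUSG00000025408, chromosome 10, 127290774 to 127296288) was at 5.33 (Tom-) and 7.44 TPM (Tom+) in tumor #1 and at 10.9 (Tom-) and 15.8 TPM (Tom+) in tumor #2. Its log2 fold change was 0.46 (SE 0.19, adjusted p = 0.936 from limma), and the Tom+ cells of tumor #1 remained below the Tom- cells of tumor #2. The shorter identifier (ENSMUSG00000116429, 127290829 to 127293753) has 105 exonic bases, all of which also belong to the longer one with 1713. It was listed at 0 (Tom-) and 11.3 TPM (Tom+) in tumor #1 and at 81.6 (Tom-) and 43.9 TPM (Tom+) in tumor #2. With both identifiers summed, Ddit3 was at 5.33 (Tom-) and 18.7 TPM (Tom+) in tumor #1 and at 92.4 (Tom-) and 59.7 TPM (Tom+) in tumor #2, a log2 difference of 1.64 in tumor #1 and -0.62 in tumor #2. The direction in tumor #2 thus depended on how reads were divided between them.
Atf4, the factor itself, was at 71.0 (Tom-) and 90.6 TPM (Tom+) in tumor #1 and at 62.3 (Tom-) and 64.8 TPM (Tom+) in tumor #2, a log2 difference of 0.20 with an SE of 0.15 and an adjusted p-value from limma of 0.936. It was nearly level in tumor #2. Asns, the asparagine synthetase, was at 0.395 (Tom-) and 0.682 TPM (Tom+) in tumor #1 and at 33.8 (Tom-) and 27.7 TPM (Tom+) in tumor #2. On the scale log2(TPM + 1) Tom+ minus Tom- cells was 0.27 in tumor #1 and -0.28 in tumor #2. Both values of tumor #1 were below 1 TPM, where this scale understates a change. The tumors did not overlap.

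**Figure D3:**
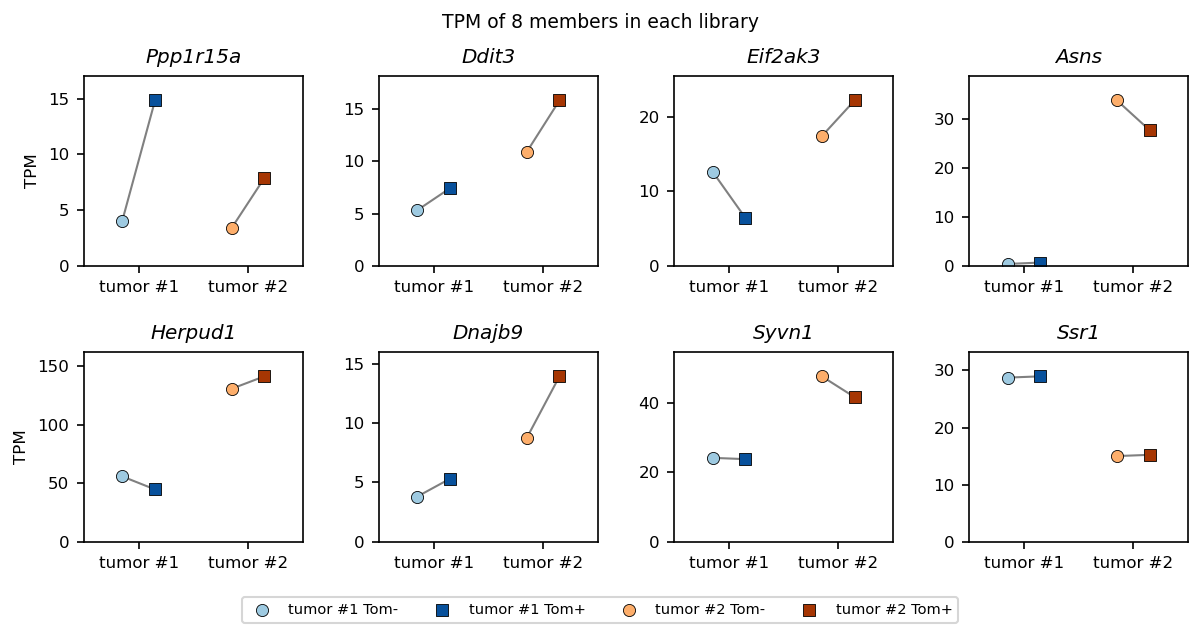
TPM of 8 listed genes in each library, with a line from Tom- (circle) to Tom+ cells (square) of the same tumor and each vertical axis starting at 0. Ppp1r15a goes up in both tumors, Eif2ak3 goes down in tumor #1 and up in tumor #2, and Asns, Herpud1, Dnajb9, Syvn1 and Ssr1 separate by tumor.

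Of the 3 sensors, Ern1 was near the limit of 1 TPM, while Atf6 and Eif2ak3 had means of 9.58 and 14.7 TPM. None of the 3 went in the same direction in both tumors. Eif2ak3, which encodes PERK, was at 12.7 (Tom-) and 6.45 TPM (Tom+) in tumor #1 and at 17.4 (Tom-) and 22.2 TPM (Tom+) in tumor #2. Its change was -0.87 in tumor #1 and 0.33 in tumor #2 on the log2 scale, the largest disagreement between the tumors among the listed genes tested, and the fit gave -0.27 with an SE of 0.38. Atf6 was at 9.44 (Tom-) and 8.61 TPM (Tom+) in tumor #1 and at 9.29 (Tom-) and 11.0 TPM (Tom+) in tumor #2. Ern1, which encodes IRE1, was at 1.25 (Tom-) and 1.19 TPM (Tom+) in tumor #1 and at 1.03 (Tom-) and 1.35 TPM (Tom+) in tumor #2. For Atf6 and Ern1 the differences were no larger than 0.22 on the log2 scale in either tumor. The adjusted p-values of the 3 sensors from limma were between 0.949 and 0.989.

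Of the 8 luminal and membrane chaperones, 3 were higher in Tom+ cells of both tumors, 1 was lower, 4 differed in direction, and 0 had an unadjusted p-value below 0.05. Hspa5, which encodes the central chaperone BiP and holds the element shown above, was at 185 (Tom-) and 242 TPM (Tom+) in tumor #1 and at 168 (Tom-) and 172 TPM (Tom+) in tumor #2 (log2 fold change 0.21, SE 0.15). The difference was mainly in tumor #1. Hsp90b1, the ER member of the HSP90 family, was at 967 (Tom-) and 767 TPM (Tom+) in tumor #1 and at 770 (Tom-) and 905 TPM (Tom+) in tumor #2, and so changed places between the tumors. Calr, the lectin chaperone calreticulin, was at 259 and 238 TPM, then 243 and 241 TPM, a ratio of 1.09 between the highest and lowest library. Canx, its membrane-bound relative calnexin, was at 439 (Tom-) and 508 TPM (Tom+) in tumor #1 and at 334 (Tom-) and 353 TPM (Tom+) in tumor #2. Canx thus differed more between the tumors than between Tom+ and Tom- cells. Hyou1, an exchange factor of BiP, was at 29.5 and 33.1 TPM, then 42.1 and 32.0 TPM. Manf, a secreted protein that is retained by BiP, was at 71.4 and 63.0 TPM, then 65.1 and 66.3 TPM. Neither went the same way in both tumors. Sdf2l1, a partner of the ER DnaJ proteins, was at 23.9 and 24.7 TPM, then 19.0 and 16.1 TPM, and Creld2, a disulfide isomerase induced by stress, was at 12.1 and 15.2 TPM, then 10.9 and 11.2 TPM. The log2 fold changes of the 8 ranged from -0.11 to 0.21.

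The DnaJ cochaperones, which stimulate the ATPase of BiP, were not alike. Dnajb9 (ERdj4), which binds IRE1 and misfolded proteins, was at 3.81 (Tom-) and 5.32 TPM (Tom+) in tumor #1 and at 8.72 (Tom-) and 13.9 TPM (Tom+) in tumor #2. Its change was 0.39 and 0.62 (log2 fold change 0.51, SE 0.20), with an adjusted p-value of 0.936 from limma. Both libraries of tumor #2 were above both of tumor #1. Dnajb11 (ERdj3) was at 89.4 and 90.3 TPM, then 102 and 82.9 TPM. Dnajc3 (p58IPK) was at 8.69 and 8.25 TPM, then 8.94 and 7.40 TPM. Both were lower in the Tom+ cells of tumor #2 and within 1.1-fold in tumor #1.

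The 4 protein disulfide isomerases, which form and rearrange disulfide bonds, summed to 419 and 412 TPM in tumor #1 and to 376 and 344 TPM in tumor #2. Their log2 fold changes lay between -0.11 and 0.039. Pdia3, which acts on glycoproteins held by calnexin and calreticulin, was at 153 and 137 TPM, then 108 and 102 TPM. P4hb, the classical disulfide isomerase, was at 152 and 164 TPM, then 133 and 106 TPM. Pdia3 was lower in tumor #2 in both cell groups, and P4hb was lowest in the Tom+ cells of tumor #2. Pdia4 was at 43.0 and 45.7 TPM, then 65.4 and 65.0 TPM, and so went the other way between the tumors. Pdia6, which also holds the element, was level in all 4 libraries, at 71.2, 65.6, 70.0 and 70.3 TPM.

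Of the 7 genes of ER-associated degradation, through which misfolded proteins are moved to the cytosol and destroyed, 4 were lower in Tom+ cells of both tumors (29.5% of all genes were), 1 was higher (21.6% of all) and 2 differed in direction. Their median log2 fold change was -0.11. Syvn1, the ubiquitin ligase HRD1, was at 24.2 (Tom-) and 23.8 TPM (Tom+) in tumor #1 and at 47.7 (Tom-) and 41.7 TPM (Tom+) in tumor #2. Sel1l, which holds the ligase complex together, was at 22.9 and 18.2 TPM, then 27.4 and 32.8 TPM. Herpud1, a membrane partner of HRD1, was at 55.8 and 44.7 TPM, then 131 and 141 TPM. The 3 partners of this complex were each highest in a library of tumor #2. Edem1, a lectin that recognises trimmed glycans, was at 56.5 and 51.9 TPM, then 43.9 and 38.4 TPM. Derl1 and Derl2 encode derlins, membrane proteins of the export channel. Derl1 was at 15.3 and 11.2 TPM, then 13.8 and 11.7 TPM, and its log2 fold change of -0.32 (SE 0.18, adjusted p = 0.936 from limma) was the lowest of the list. Derl2 was at 11.3 and 10.2 TPM, then 17.9 and 16.0 TPM. Selenos, a selenoprotein bound to derlins, was at 20.9 and 21.0 TPM, then 21.2 and 29.2 TPM, so its difference was in tumor #2.

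The translocon members, through which new proteins enter the ER, were near level between Tom+ and Tom- cells. Sec61a1, the pore subunit, was at 40.0 and 50.6 TPM, then 56.6 and 61.0 TPM (log2 fold change 0.22, SE 0.15). Sec61b, a small subunit of the same channel, was at 77.0 and 77.3 TPM, then 69.5 and 57.8 TPM. In tumor #2 the subunits of this channel thus went in different directions. Ssr1, a subunit of the translocon-associated protein complex, was at 28.8 (Tom-) and 29.0 TPM (Tom+) in tumor #1 and at 15.0 (Tom-) and 15.2 TPM (Tom+) in tumor #2. Ssr1 had a log2 fold change of 0.015 and separated by tumor alone.

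Plasma cell markers summed highest in the Tom+ cells of tumor #2. Of 19 markers, 13 reached 1 TPM in at least 1 library, and their sum was 274 (Tom-) and 267 TPM (Tom+) in tumor #1 and 233 and 467 TPM in tumor #2. Jchain, the joining chain of secreted IgM and IgA, was at 0.330, 1.72, 1.24 and 209 TPM in the same order and was the largest part of the last sum. Igha, the constant region of IgA, was at 31.0 TPM there and at 0.207 TPM or less in the others. Of the 19 markers, 12 were highest in the Tom+ cells of tumor #2, among them Irf4 at 29.4 TPM against at most 19.5 TPM elsewhere. Of these 12, Prdm1, Cd28, Creb3l2, Ighg1 and Ighg2c stayed below 1 TPM in every library. In Tom- cells, 5 were highest in tumor #1 and 2 in tumor #2. Mzb1 was at 145 and 144 TPM in tumor #1, then 94.8 and 80.6 TPM in tumor #2. Slamf7 was at 65.3 and 63.9 TPM, then 38.8 and 31.8 TPM. Both were thus lowest in the Tom+ cells of tumor #2. Prdm1, the master factor of plasma cells, was highest in the Tom+ cells of tumor #2, at 0.570 TPM against at most 0.108 TPM elsewhere. Sdc1 stayed at 1.95 TPM or less, with its highest values in tumor #1 and a value of 0 in Tom- cells of tumor #2. Some listed genes also had their highest level in the Tom+ cells of tumor #2. They were Dnajb9, Sel1l, Selenos, Herpud1, Sec61a1, the 3 sensors, Chac1 and the longer Ddit3 identifier. Others, namely Sdf2l1, Dnajb11, Dnajc3, Pdia3, P4hb, Edem1 and Sec61b, had their lowest level in the same library. The share of all genes that were highest or lowest in it was not counted. The part of plasma cell RNA in these values was not tested.

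The same pathways were examined in 133 further genes, of which 120 were tested, and 0 of them passed adjustment. At an unadjusted p-value below 0.05, 0 were higher and 2 lower in Tom+ cells (1.67% lower, against 2.64% of all genes). In both tumors 22 were higher (18.3%) and 44 lower (36.7%), so lower genes outnumbered higher ones, as they did among all genes tested. The genes with the smallest p-values were both in the list of translocation, signal peptide and N-glycosylation genes. Srprb, a subunit of the receptor for the signal recognition particle, was at 113 (Tom-) and 58.7 TPM (Tom+) in tumor #1 and at 105 (Tom-) and 51.4 TPM (Tom+) in tumor #2. Its log2 fold change was -0.98 (SE 0.13), with p-values from limma of 0.0040 before and 0.936 after adjustment. Alg3, a mannosyltransferase of N-glycan assembly, was at 14.8 and 7.95 TPM, then 11.9 and 6.12 TPM (log2 fold change -0.84, SE 0.18). Both genes were lower by similar amounts in the 2 tumors. The list held 32 genes, all tested, and its median log2 fold change was -0.069, with 4 higher and 17 lower in both tumors.

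Among the transcription factors of the response, Xbp1 was at 10.6 (Tom-) and 11.7 TPM (Tom+) in tumor #1 and at 18.7 (Tom-) and 21.2 TPM (Tom+) in tumor #2, and its log2 fold change was 0.15 (SE 0.17). Atf6b, a relative of ATF6, was at 17.4 and 9.40 TPM, then 17.4 and 12.8 TPM (-0.62, SE 0.21), and Creb3, another factor activated by cleavage, was at 23.2 and 30.2 TPM, then 12.0 and 22.8 TPM (0.62, SE 0.21). Atf6b and Creb3 thus went in opposite directions, each the same way in both tumors, and both had an adjusted p-value of 0.936 from limma. Of the 24 tested chaperones and folding enzymes in addition to the listed ones, 0 were higher and 11 lower in both tumors, where 21.6% and 29.5% of all genes were. The smallest p-values were those of Mesd, a chaperone of lipoprotein receptors (-0.44, SE 0.19), and Uggt1, the glycoprotein folding sensor (-0.44, SE 0.22). Among 22 further genes of ER-associated degradation, 2 were higher and 9 lower in both tumors, beside the same shares of all genes, and Faf2 had the smallest p-value (log2 fold change -0.41, SE 0.17). Of the 37 tested genes in the remaining part of the integrated stress response, 13 were higher and 6 lower in both, again beside 21.6% and 29.5% of all genes. Slc3a2, the heavy chain of amino acid transporters, was at 220 and 268 TPM, then 121 and 161 TPM (0.34, SE 0.12), and Cars, a cysteinyl-tRNA synthetase gene, had a log2 fold change of 0.29 (SE 0.14). The adjusted p-values of these genes from limma were 0.936 or more.

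The second comparison was between the tumors. Asns was the gene of the list that differed most, at 57.2 times the mean TPM of tumor #1 in tumor #2, a ratio that rests on values below 1 TPM in tumor #1. Herpud1, Dnajb9 and Syvn1 were also higher in both libraries of tumor #2. Ssr1 was lower. The 8 chaperones and 4 disulfide isomerases were each within 1.5-fold in mean TPM. Each tumor was 1 mouse, so these are differences between those mice and carry no test.

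A gene was counted where both libraries of a tumor were at least 1.5-fold above both of the other on the scale of TPM + 1. By this rule 4 of the 32 tested genes were higher in tumor #2 (12.5%), against 19.7% of all genes, and 1 was lower (3.12%), against 6.26% of all genes. The median difference, tumor #2 minus tumor #1, was -0.025 on the log2 scale over the listed genes and 0.20 over all genes tested. The level of all genes depended on the scaling, since their median became -0.073 with trimmed-mean scaling, -0.097 with quantile normalization and 0.30 when immunoglobulin, mitochondrial and pseudogene genes were left out. With either of the first 2 scalings only Asns and Herpud1 still counted as higher, and with trimmed-mean scaling Canx, Sdf2l1, Pdia3 and Ssr1 counted as lower. The shares of all genes changed as well. They were 12.7% higher and 12.6% lower with trimmed-mean scaling, and 11.2% and 11.5% with quantile normalization. Relative to the median of all genes, Asns differed by 4.17, Herpud1 by 1.22 and Hspa5 by -0.52. With both Ddit3 identifiers summed, Ddit3 counted as well and 5 genes were higher. In direction alone, 10 of the 32 were above in tumor #2 under each of these scalings and with a pseudocount of 0.1, 11 were below under each, and 11 changed sign. Of the 9972 genes with a value under each, 40.4% were above, 33.9% below and 25.7% changed sign. The 10 were Dnajb9, Pdia4, Herpud1, Syvn1, Sel1l, Derl2, Sec61a1, Eif2ak3, Ddit3 and Asns, and the 11 below were Hspa5, Canx, Sdf2l1, Creld2, Pdia3, P4hb, Edem1, Sec61b, Ssr1, Atf4 and Ppp1r15a.

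Asns (ENSMUSG00000029752, chromosome 6, 7675169 to 7693254, minus strand) differed by 4.37 on the log2 scale and by between 4.05 and 5.63 over the scalings and the pseudocount of 0.1. It was below 1 TPM in both libraries of tumor #1 and at 27.7 TPM or more in both of tumor #2. Atf4 differed by -0.33 and Ppp1r15a by -0.52, both below in tumor #2 under each of these settings. Ddit3 differed by 0.95 with its longer identifier and by 2.75 with both summed, when its lowest level in tumor #2 was 3.19 times its highest in tumor #1. Its difference thus depended on the identifier, and by the sum it was second to Asns in the list. Chac1, which holds the same promoter element as Asns, was at 0.398 TPM or less in all 4 libraries.
Of the 37 other tested genes of the integrated stress response, 4 were higher and 4 lower in tumor #2 by the same rule, against 19.7% and 6.26% of all genes. Ddit4, an inhibitor of mTOR complex 1 that was chosen after its values were seen, was at 3.68 (Tom-) and 3.78 TPM (Tom+) in tumor #1 and at 43.0 (Tom-) and 33.1 TPM (Tom+) in tumor #2. Psat1, an enzyme of serine synthesis that was also chosen in this way, went the other way, from 170 and 167 TPM to 87.0 and 102 TPM.

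The genes of ER-associated degradation had the highest median difference of the 7 role groups, 0.53 on the log2 scale, as deposited and under each scaling, with 0.23 under the trimmed mean and 0.29 under quantile normalization. They summed to 207 and 181 TPM in tumor #1 against 303 and 311 TPM in tumor #2. Herpud1 alone made up 55.8 and 44.7 TPM, then 131 and 141 TPM, of these sums, and so most of their difference. Among the 22 other tested genes of ER-associated degradation, 1 was higher and 0 lower in tumor #2 by the same rule. Of all genes 19.7% were higher and 6.26% lower. The median difference of the 22 was 0.33, against 0.20 over all genes. Herpud1 (ENSMUSG00000031770, chromosome 8, 94386438 to 94395377, plus strand) was 2.34 times as high in Tom- cells and 3.16 times in Tom+ cells of tumor #2. The difference was 1.43 on the log2 scale and between 1.12 and 1.5 over the settings. Syvn1 (chromosome 19, 6046576 to 6053712) was 1.97 and 1.75 times as high. Derl2 and Sel1l differed by 0.61 and 0.53, also above under every setting, whereas Edem1 was below, by -0.39. Dnajb9, the cochaperone, differed by 1.13, and was 2.29 and 2.62 times as high in Tom- and Tom+ cells of tumor #2. Eif2ak3 differed by 1.03, but its Tom- level in tumor #1 was within 1.5-fold of that in tumor #2. Xbp1 was 1.77 and 1.81 times as high in tumor #2.
In contrast to these, Hspa5 differed by -0.31, Canx by -0.46, Pdia3 by -0.46 and P4hb by -0.41, all below in tumor #2 under every setting. Hsp90b1 differed by -0.044, and by between -0.36 and 0.23 over the settings. Of the 8 genes with the ER stress response element, Syvn1 alone counted as different between the tumors in the values as deposited. Of all genes, 19.7% counted as higher and 6.26% as lower in tumor #2. With trimmed-mean scaling Syvn1 no longer counted and Canx did, as lower. Ssr1 (chromosome 13, 37966605 to 37994217) was at 0.522 and 0.526 times its tumor #1 level in Tom- and Tom+ cells of tumor #2, a log2 difference of -0.89.
B cell, erythroid and Pecam1 levels also differed between the tumors, as given above, and so did the share of mitochondrial RNA. Their part in these differences was not tested, and with 1 mouse per tumor they cannot be told apart from the tumor itself.

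**Figure D4:**
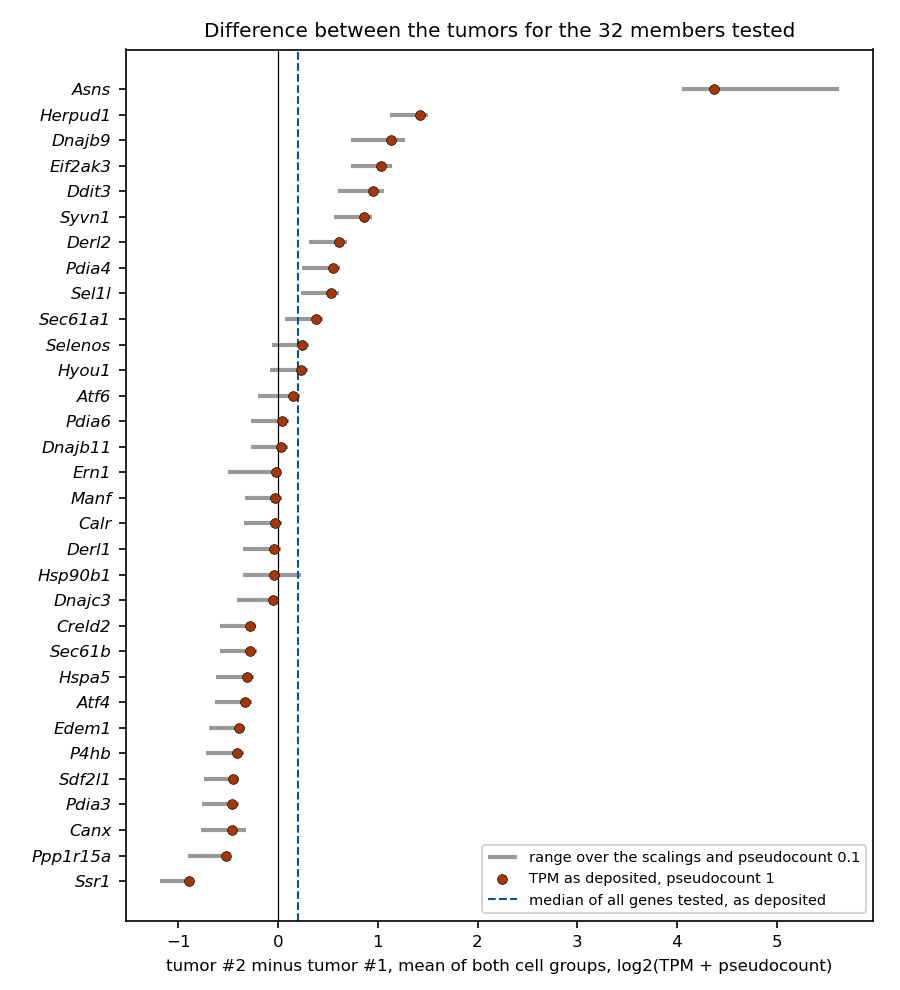
Difference between the tumors for the 32 tested genes, as tumor #2 minus tumor #1 of the mean of both cell groups on the scale log2(TPM + pseudocount), with points for the values as deposited, grey lines for the range over the scalings and the pseudocount of 0.1, and a dashed line at the median of all genes (0.20). Asns lies far to the right at 4.37, Herpud1, Dnajb9 and Eif2ak3 exceed 1, Ssr1 is lowest at -0.89, and the lines of the genes in the middle cross 0.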

How the data were processed

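Poly(A) RNA of Tom+ and Tom- splenocytes from 2 mice was sequenced by the authors as 60-base single reads (FASTQ files from CASAVA 1.8), trimmed with Cutadapt, with reads under 30 bases discarded, and quantified with Salmon (1.9 per the submitters' processing notes) on the mouse transcriptome of GRCm38. They deposited 1 table of TPM per gene, unfiltered, with libraries not pooled. How transcripts were summed to genes, and whether strand was used, is not given in the sources used here. The annotation release behind the table is uncertain. TPM keeps no read counts, so depth is unknown. The paired edgeR test of the study needs counts and was not run.

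Symbols and coordinates came from GENCODE M21 (GRCm38), which held 34652 of the 34866 identifiers, and promoters from RefSeq (GRCm38.p6), matched by symbol. Genes reaching a TPM of 1 in 2 or more libraries were analysed on the scale log2(TPM + 1). Tom+ and Tom- cells were compared with limma 3.58.1 in R 4.3.3, with the tumor as a block, a variance trend and Benjamini-Hochberg adjustment at 0.05. The block was kept because the libraries of a tumor came from the same mouse (the deviations of same-tumor libraries from their group means correlated across 11339 genes, Pearson's r = 0.626, and genes are not independent replicates). The script was tested on simulated data. Tables and plots used Python 3.11.15, pandas 2.3.3, numpy 2.4.6 and matplotlib 3.10.9.

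The listed genes and all gene lists were chosen with earlier results of these data known. Values were given for each gene of the list, and in full for those with an unadjusted p-value below 0.05, a change of at least 0.58 (log2) in the same direction in both tumors, or all libraries of a tumor at least 1.5-fold from the other, and for the 3 sensors, Atf4, Ddit3 and Hspa5. Of the 133 further pathway genes, Xbp1 and the 2 genes per list with the smallest p-value were named, and some items that this rule or the markers would name are not reported here. For Ddit3 the longer of 2 identifiers was used. Alternatives were a fit without the block, pseudocounts of 0.1 or 0.5, genes without a filter or with a mean TPM of 5 or more, scaling by a trimmed mean (30% of log ratios and 5% of levels trimmed), quantile normalization, immunoglobulin, mitochondrial and pseudogene genes left out, no variance trend, and each tumor left out. Protein sequences were not used here.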

Additional observations from a re-analysis of the deposited data

Results flagged for a closer look

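In 2 cases Tom+ minus Tom- cells had the opposite direction in the tumors by a wide margin, and the difference between the tumors was not tested, since each had 1 library per cell group. Eif2ak3 was at -0.87 in tumor #1 and 0.33 in tumor #2 on the log2 scale. The second, shorter Ddit3 identifier, which shares all of its 105 exonic bases with the longer one, was at 3.62 in tumor #1, where it was listed at 0 in Tom- cells, and at -0.88 in tumor #2.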

How the results depend on the processing

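Under every alternative fit, 0 genes passed an adjusted p-value of 0.05 with limma, the lowest adjusted p-value of a listed gene being 0.785, and 1 listed gene had an unadjusted p-value below 0.05. Without the replicate block, which pairs the libraries of a mouse, these counts were also 0, 0 and 1, while the number of all genes below an unadjusted 0.05 went from 530 to 140, and the median log2 fold change of the listed genes was -0.053 as before. Leaving out a tumor leaves no test. That median was -0.037 with trimmed-mean scaling, -0.020 with quantile normalization, 0.0017 with immunoglobulin, mitochondrial and pseudogene genes left out, and from 0.0064 to 0.023 with a tumor left out. Higher in tumor #2 were 2 listed genes under the trimmed mean, 2 under quantile normalization and 2 at a 2-fold limit, and lower were 4 with trimmed-mean scaling and 0 at 2-fold, a limit chosen after seeing the data. Of all genes, 12.7% were higher and 12.6% lower under the trimmed mean, and 11.2% and 11.5% under quantile normalization. The share of all genes at the 2-fold limit was not counted. The median difference of the tumors was -0.30 under the trimmed mean and -0.14 under quantile normalization.

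Of 287 changes of single listed genes between Tom+ and Tom- cells, 279 kept their direction and 8 did not, in 3 genes. Hsp90b1 was at 0.033 with quantile normalization and 0.0046 with immunoglobulin, mitochondrial and pseudogene genes left out, Sel1l at 0.0027 and 0.020, and Asns at 0.19 and 0.059 with pseudocounts of 0.1 and 0.5, 0.025 with trimmed-mean scaling and 0.10 with those genes left out. With each tumor left out, the direction depended on the tumor for 15 genes. Their ranges were -0.33 to 0.23 for Hsp90b1, -0.38 to 0.16 for Hyou1, -0.23 to 0.048 for Sdf2l1, -0.18 to 0.027 for Manf, -0.29 to 0.013 for Dnajb11, -0.0070 to 0.085 for Pdia4, -0.12 to 0.0059 for Pdia6, -0.33 to 0.11 for P4hb, -0.31 to 0.11 for Herpud1, -0.32 to 0.25 for Sel1l, -0.26 to 0.0064 for Sec61b, -0.12 to 0.22 for Atf6, -0.040 to 0.21 for Ern1, -0.87 to 0.33 for Eif2ak3 and -0.28 to 0.27 for Asns. With both Ddit3 identifiers summed, which was chosen after seeing the data, its mean change was 0.51, from 1.64 in tumor #1 to -0.62 in tumor #2, so its direction then depended on the tumor, and 5 listed genes were higher in tumor #2. The cause of these shifts was not tested.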
